A study of Mus musculus with 12 samples.

Results

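The transcripts of 8 transcription factor genes with roles in neural development and of *Nefm*, the gene of a neurofilament protein of neurons, were followed through RNA-Seq of mouse embryonic stem cells (ESCs). They were 9 of the 46517 genes in the count files and were taken as a named list: *Neurog3*, *Neurog2*, *Neurod1*, *Nhlh1*, *Nkx6-3*, *Pax6*, *Gbx2*, *Six3* and *Nefm*. Each name matched 1 Ensembl gene. The question was at what levels these genes are read when the *Meteor* locus is deleted, and which of their fold changes rest on only a few reads. No neural sample is among the 12, so levels are set beside those of all tested genes.

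The 12 samples form 4 groups of 3 replicates: undifferentiated ESCs at day 0 and differentiating cells at day 3, each WT or *Meteor* KO. All groups share the C57BL/6 strain background and the EomesEGFP reporter line, in which EGFP sits at the *Eomes* locus. The undifferentiated ESCs were grown on mouse embryonic fibroblast feeders. *Meteor* is an enhancer-associated long noncoding RNA locus near *Eomes*, and the KO cells lost it through paired CRISPR-Cas9 nickase cuts, puromycin selection and picking of individual clones. For day 3, cells were aggregated in hanging drops to form embryoid bodies under conditions that lead towards cardiac mesoderm, not towards neurons. The labels do not say whether the 3 KO replicates come from 1 clone or several, or whether replicates were separate cultures, so p-values measure the spread between these samples, which may be technical. The study repeated findings in an additional deleted clone with other assays. Effects of clone or selection were not tested apart from the deletion. A KO effect here means a difference between these KO and WT samples.

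Proneural basic helix-loop-helix (bHLH) factors act in sequence as cells leave the progenitor state: neurogenins such as *Neurog2* and *Neurog3* switch on *Neurod1* and *Nhlh1*, which accompany neuronal differentiation. The homeodomain factors mark regions or earlier stages, with *Pax6* in neural progenitors and the eye field, *Six3* in the anterior forebrain, *Gbx2* in the anterior hindbrain and *Nkx6-3* in the caudal hindbrain and the stomach. *Neurog3*, *Neurod1*, *Pax6* and *Nkx6-3* also serve endocrine cells of pancreas or gut, and *Gbx2* is active in pluripotent cells, so none of these transcripts alone names a neural cell.

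bHLH factors bind the E-box, a motif of 6 bases spelled CANNTG, which reads as an E-box on both strands. The 250 bases before the RefSeq transcript start (GRCm38.p6) are shown for the genes that were called higher in KO at day 3, described below, and for which an entry was at hand. E-boxes are in capitals, and the *Neurod1* stretch ends where an annotated exon begins.
Neurog3, chr10:62132840-62133089, plus strand: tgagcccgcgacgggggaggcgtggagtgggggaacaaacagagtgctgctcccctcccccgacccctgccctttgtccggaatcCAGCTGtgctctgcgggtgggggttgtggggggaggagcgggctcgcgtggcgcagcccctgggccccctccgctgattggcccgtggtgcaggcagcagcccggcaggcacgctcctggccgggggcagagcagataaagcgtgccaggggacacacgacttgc
Neurod1, chr2:79456786-79456886, minus strand: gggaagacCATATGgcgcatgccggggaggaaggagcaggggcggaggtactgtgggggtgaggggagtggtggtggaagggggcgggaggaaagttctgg
Nhlh1, chr1:172057597-172057846, minus strand: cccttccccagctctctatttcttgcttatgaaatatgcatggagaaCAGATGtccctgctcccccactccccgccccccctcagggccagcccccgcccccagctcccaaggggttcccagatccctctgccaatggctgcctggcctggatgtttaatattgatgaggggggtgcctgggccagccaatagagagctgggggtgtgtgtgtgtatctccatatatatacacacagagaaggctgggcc
Pax6, chr2:105668646-105668895, plus strand: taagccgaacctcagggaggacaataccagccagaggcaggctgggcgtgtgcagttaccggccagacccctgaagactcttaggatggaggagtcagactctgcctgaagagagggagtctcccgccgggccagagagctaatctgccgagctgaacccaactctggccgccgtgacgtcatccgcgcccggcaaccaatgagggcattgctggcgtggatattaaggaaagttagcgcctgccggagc
*Neurog3* has a CAGCTG 165 bases before its start, *Neurod1* a CATATG at 242 bases and *Nhlh1* a CAGATG at 203 bases, while the *Pax6* stretch, before the first of its 2 listed starts, holds none and the window of the other start has a CAAATG at 20 bases. Of 32851 promoters of the same length, 66.2% held a CANNTG, 13.0% a CAGCTG and 14.4% a CAGATG or its reverse CATCTG, so an E-box in such a window is the usual case, and a match describes the sequence only. Entries were at hand for 7 of the 9 genes, and *Gbx2* had 3 E-boxes in its window.

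Gene counts summed to between 17455927 and 23910943 reads in a sample. Levels are given in CPM, the reads of a gene scaled to a common library total with TMM, a normalization that aligns the bulk of genes between samples, and 1 CPM stands for 19.7 reads at the median depth. A level under 1 CPM is therefore called few reads here. Deletion was checked on the 2 annotated genes of the locus: *Platr11* had 112, 30 and 63 reads in WT and 0, 1 and 1 reads in KO at day 0, and 2610509F24Rik had no read in any of the 6 KO samples. Pluripotency markers summed to between 3082.35 and 3615.89 CPM in WT and between 4360.22 and 4672.63 CPM in KO at day 0. WT replicate 3 at day 3 stood apart, with the lowest pluripotency sum of its group, 629.23 CPM, and calls that change without it are given with the gene. Feeder fibroblast markers (10 genes, 9 of them tested) ranged in sum from 99.38 to 301.79 CPM in WT and from 150.88 to 403.68 CPM in KO at day 0, and from 52.84 to 108.70 and 42.56 to 88.41 CPM at day 3, so the groups overlapped at both days. In these whole populations, more cells of a kind and more RNA per cell cannot be told apart.

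Over all 12 samples the members fell into 3 classes of abundance. *Gbx2* (3197 reads in all), *Nefm* (1537), *Pax6* (1450) and *Neurod1* (875) were above 1 CPM in at least 11 of the 12 samples. *Nkx6-3* (728 reads) was above 1 CPM only in the 3 KO samples of day 0, and *Neurog3* (467 reads) in 5 samples, all KO. *Six3* (110 reads) and *Nhlh1* (53 reads) passed 1 CPM in 1 sample each, and *Neurog2* (15 reads) in none. The median tested gene had a mean of 16.89 CPM in WT at day 0 and 18.40 CPM in KO at day 3. At day 0 only *Gbx2* exceeded the median of its group, in both genotypes, and at day 3 no member did, where the highest, *Nefm* in KO, lay above 42.8% of the tested genes.

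**Figure D1:**
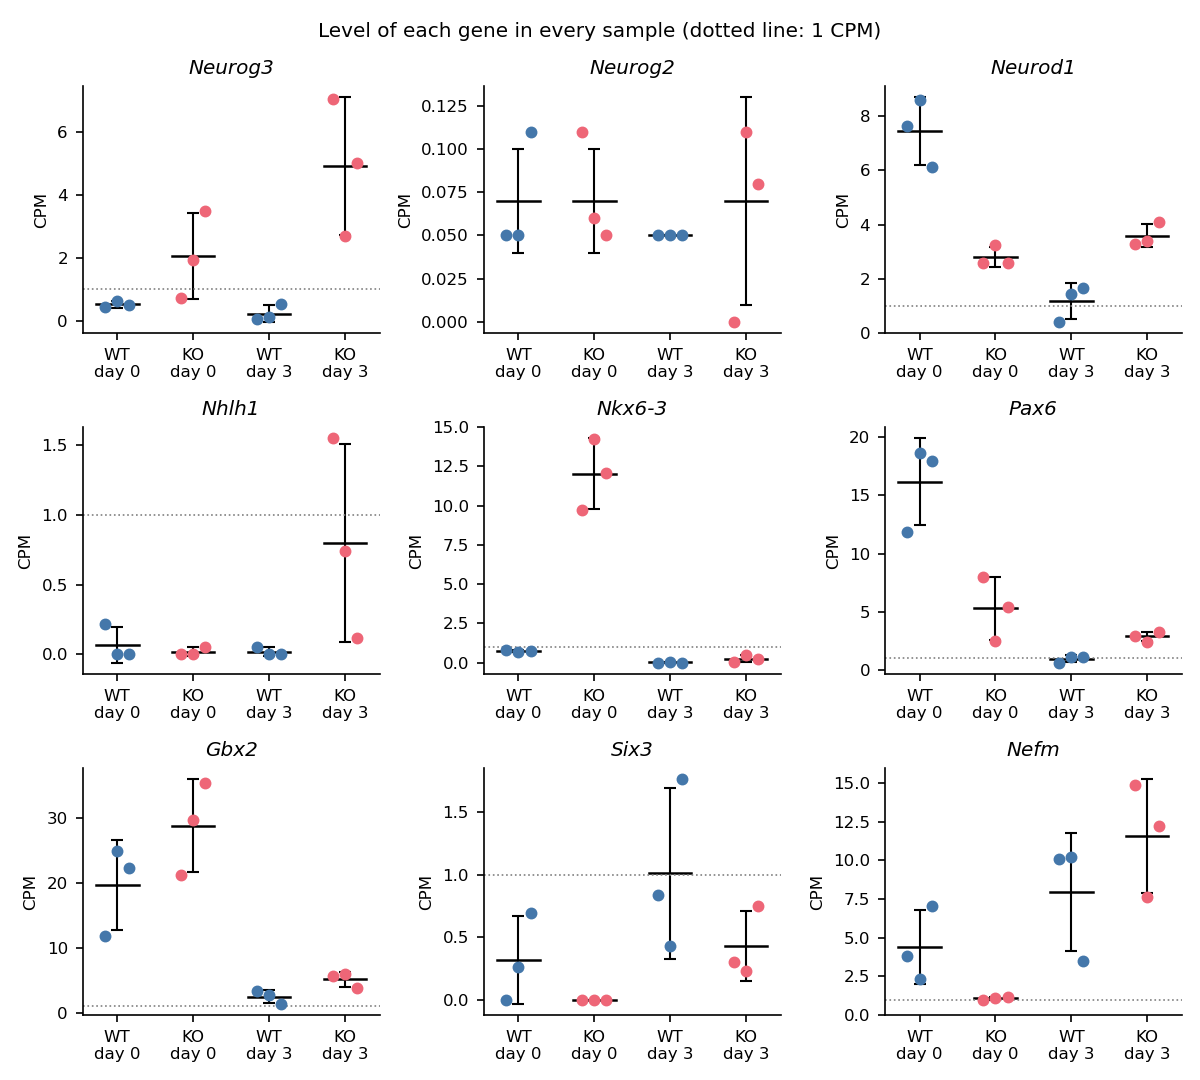
Level of the 9 genes in each of the 12 samples in CPM (y axis, own scale per panel), by group (x axis); blue points are WT, red points KO, black lines and bars the mean and SD of 3 replicates, and the dotted line 1 CPM. *Nkx6-3* stands out in KO at day 0 (9.74 to 14.26 CPM), *Neurog3* in KO at day 3 (2.67 to 7.04 CPM), and all *Neurog2* values stay at or under 0.11 CPM.

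The test took in every gene that passed 1 CPM in some sample, which admitted 8 of the 9 members and left out *Neurog2*. A gene that passes through 1 high sample, as *Nhlh1* and *Six3* did, is kept because of that sample. *Nkx6-3* and *Neurog3* were above 1 CPM in KO samples only, so they too were tested because of the groups where they are high. The counts of members called below include such genes. A gene is called where its adjusted p in edgeR's quasi-likelihood test (Benjamini-Hochberg over the 15673 tested genes) lies below 0.05. At day 0, 5 of the 8 were called in KO against WT, 1 higher and 4 lower, against a background of 20.4% of all tested genes called, 9.56% higher and 10.9% lower. At day 3, 5 were called, all higher, against 30.9% of tested genes called, 14.3% higher and 16.7% lower. With a replicate block within each day, the level at which the numbers pair WT and KO samples, 7 were called at day 0, 3 higher and 4 lower, and 7 at day 3, 6 higher and 1 lower. Over all 15673 tested genes that block called 5447 at day 0 and 7347 at day 3, against 3201 and 4846 in the main fit. The values of KO and WT did not overlap for 5 of the 9 genes at day 0 and 6 at day 3, where 34.2% and 43.8% of tested genes did not overlap.

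The neurogenins come first in the cascade. *Neurog3* (ENSMUSG00000044312, GRCm38 chromosome 10, 62133090 to 62134763, plus strand, a single exon) had 8, 12 and 9 reads in WT at day 0, which is 0.44, 0.63 and 0.48 CPM. KO at day 0 had 13, 35 and 68 reads, or 0.73, 1.93 and 3.47 CPM. WT at day 3 had 1, 2 and 11 reads (0.05, 0.10 and 0.52 CPM), and KO at day 3 had 141, 47 and 120 reads (7.04, 2.67 and 4.99 CPM). KO lay above WT in each pair of replicates at both days, with no overlap.

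At day 3 *Neurog3* was called, with 0.22 ± 0.26 CPM for WT and 4.90 ± 2.19 for KO (SD, n = 3), so that the fitted log2 difference was 4.57 (standard error, SE, 0.70; adjusted p = 0.00123 by edgeR). The ratio of the reads was 22.6 with a counting interval (95%) of 13.2 to 41.8, so the call rests on 308 KO reads against 14. Without WT replicate 3, which holds most of the WT reads, the log2 fold change rose to 5.84. At day 0 the gene was not called (log2 fold change 1.87, SE 0.65, adjusted p = 0.0677 by edgeR), although a replicate block within each day (adjusted p = 0.0218), the 6 samples of the day alone (0.00767), DESeq2 (0.0396) and removal of the filter on low counts (0.0294) gave a call. Leaving out KO replicate 1 of day 0 (adjusted p = 0.0318), WT replicate 3 of day 3 (0.0424) or KO replicate 1 of day 3 (0.0322) also gave one in edgeR. By the main test no change between the days was called within a genotype: WT from day 0 to day 3 had a log2 fold change of -1.32 (adjusted p = 0.191 by edgeR) and KO 1.38 (adjusted p = 0.0589). The KO change was called in DESeq2 (adjusted p = 0.0443), without the filter (0.0297) and without WT replicate 3 (0.044) or KO replicate 2 (0.045) of day 3. The block within each day called it too (0.0158), but that fit leaves the error of a change between the days within a genotype too small. The KO change came to 0.61 without KO replicate 1 of day 3 and 0.80 without KO replicate 1 of day 0. The difference between the days in the KO effect was 2.70 (SE 0.99, adjusted p = 0.0945 by edgeR), not called in the main test. The block within each day, the level at which the numbers pair WT and KO samples, gave a call (0.0417 by edgeR). DESeq2 (0.0226) and the fit without the filter (0.0484) gave one too. In the main model, 0 of the 12 fits that left out 1 sample called it. Whether the response differed between day 0 and day 3 thus depended on the fit.

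Of the 1674 exon bases of *Neurog3*, 273 overlap *Fam241b* on the opposite strand, a more abundant gene that was also called higher in KO. *Fam241b* had 6.31 ± 1.60 CPM in WT and 13.11 ± 0.45 in KO at day 0, and 8.71 ± 0.78 and 16.80 ± 1.12 CPM at day 3 (SD, n = 3). Its log2 fold changes were 1.07 (SE 0.16, adjusted p = 0.00161 by edgeR) and 0.95 (SE 0.15, adjusted p = 0.00159). The library kit keeps the strand, but the strand setting of the count is not given in the sources used here, so how many *Neurog3* reads could come from *Fam241b* was not tested. At day 3 the *Fam241b* reads went from 551 to 1033 while those of *Neurog3* went from 14 to 308, so the reads of the pair were not in 1 ratio.

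*Neurog2* (ENSMUSG00000027967, chromosome 3, 127633135 to 127635631, plus strand), the neurogenin of cortical and spinal progenitors, had 1, 1 and 2 reads in WT and 2, 1 and 1 in KO at day 0. At day 3 it had 1, 1 and 1 reads in WT and 0, 2 and 2 in KO. With 3 or 4 reads per group, no level and no difference could be made out: the KO to WT ratio at day 3 was 1.37 with a counting interval of 0.231 to 9.34.

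*Neurod1* (ENSMUSG00000034701, chromosome 2, 79452521 to 79456751, minus strand), a factor of differentiating neurons and of endocrine cells, reversed its order between the days. WT samples at day 0 had 140, 165 and 116 reads (7.64, 8.60 and 6.12 CPM) and KO samples 46, 59 and 51 (2.58, 3.25 and 2.60 CPM). At day 3 WT had 9, 30 and 35 reads (0.42, 1.44 and 1.67 CPM) and KO 66, 60 and 98 (3.30, 3.41 and 4.08 CPM). All KO values lay below all WT values at day 0 and above them at day 3.

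The log2 fold change of *Neurod1* in KO was -1.42 at day 0 (SE 0.34, adjusted p = 0.0155 by edgeR) and 1.66 at day 3 (SE 0.36, adjusted p = 0.00752). In WT the transcript fell between the days (log2 fold change -2.71, SE 0.36, adjusted p = 0.000193 by edgeR), whereas for KO the change was 0.36 (SE 0.34, adjusted p = 0.388). The test of the difference between the KO effects gave 3.08 (SE 0.50, adjusted p = 0.00367 by edgeR). At its highest, in WT ESCs, *Neurod1* exceeded 37.6% of the tested genes. The day 0 call was lost without WT replicate 1 (adjusted p = 0.0594), WT replicate 2 (0.0529), KO replicate 2 (0.0608) or KO replicate 3 (0.074), and the day 3 call held in all 12 edgeR fits that left out 1 sample. *Cerkl*, whose exons share 201 bases with *Neurod1* on the same strand, had 1.28 ± 0.14 CPM at most (KO, day 0).

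*Nhlh1* (ENSMUSG00000051251, chromosome 1, 172052292 to 172057573, minus strand), a bHLH factor of newborn neurons, was nearly silent outside KO at day 3. It had 4, 0 and 0 reads in WT and 0, 0 and 1 in KO at day 0, and 1, 0 and 0 in WT at day 3. KO at day 3 had 31, 13 and 3 reads, or 1.55, 0.74 and 0.12 CPM. The KO samples differed from each other by over 10 times in reads, and KO replicate 3, with 3 reads, was near the WT level. The gene was called higher at day 3 (adjusted p = 0.00455 by edgeR), in each of the 11 edgeR fits that left out 1 sample and still tested it. Without KO replicate 1 of day 3, its only sample above 1 CPM, it was not tested. Those fits therefore cannot show whether the call depends on that sample. The call rests on 47 reads against 1, a ratio of 48.2 with a counting interval of 8.24 to 1940, so its size is hardly bounded. The KO mean of 0.80 ± 0.71 CPM lay above only 13.0% of the tested genes.

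Among 15 proneural and neuronal bHLH factors, 4 were tested. In KO at day 3, 3 of them were called higher, all members described above, and 1 lower, and at day 0 none was higher and 1, *Neurod1*, lower. The one that fell at day 3 was *Bhlhe22*, a factor of cortical and spinal neurons, with 1.74 ± 0.05 CPM in WT and 0.16 ± 0.04 in KO (log2 fold change -3.40, SE 0.59, adjusted p = 0.00234 by edgeR). The 11 others never passed 1 CPM. *Neurod4* reached 0.45 CPM at most and *Neurod2* 0.05 CPM, and *Neurod6* had no read. The whole list summed to between 10.40 and 11.84 CPM in WT and 5.43 and 7.55 CPM in KO ESCs, and to between 2.75 and 4.52 and between 7.61 and 12.79 CPM at day 3.

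*Nkx6-3* (ENSMUSG00000063672, chromosome 8, 23153269 to 23158948, plus strand) had 15, 13 and 14 reads in WT at day 0 (0.82, 0.68 and 0.74 CPM) and 174, 259 and 237 reads in KO (9.74, 14.26 and 12.09 CPM). At day 3, 0, 1 and 0 reads remained in WT and 1, 9 and 5 in KO (0.05, 0.51 and 0.21 CPM). The 3 KO samples of day 0 thus lay far above the 9 other samples.

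At day 0 *Nkx6-3* was higher by 3.98 on the log2 scale (SE 0.40, adjusted p = 0.000297 by edgeR), and it was called in all 12 fits that left out 1 sample. The call at day 3 (adjusted p = 0.0207 by edgeR) had another footing, 15 reads against 1, a ratio of 15.4 with a counting interval of 2.37 to 648. It was lost without WT replicate 1 (adjusted p = 0.0518), WT replicate 3 (0.066) or KO replicate 2 (0.0848) of that day. The transcript fell between the days in both genotypes, from 42 reads to 1 in WT (adjusted p = 0.000465 by edgeR) and in KO it fell by 5.61 on the log2 scale (SE 0.45, adjusted p = 6.27e-06). Over the 10 Nkx and ventral patterning factors, of which 8 were tested, 2 were called higher and 0 lower at day 0. The other one was its relative *Nkx6-2*, with 4.63 ± 0.69 CPM in WT and 12.15 ± 2.96 in KO (log2 fold change 1.36, SE 0.30, adjusted p = 0.0111 by edgeR) and 0.35 ± 0.02 and 0.58 ± 0.33 CPM at day 3. At day 3, 1 was higher and 3 lower, among them *Foxa2*, a factor of endoderm and floor plate, at 67.75 CPM in WT and 1.58 CPM in KO.

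*Pax6* (ENSMUSG00000027168, chromosome 2, 105668900 to 105697364, plus strand) moved like *Neurod1*. WT ESCs had 218, 358 and 341 reads (11.89, 18.67 and 18.00 CPM) and KO ESCs 142, 45 and 106 (7.95, 2.48 and 5.41 CPM). At day 3 WT had 13, 23 and 24 reads (0.61, 1.11 and 1.14 CPM) and KO 58, 43 and 79 (2.90, 2.44 and 3.29 CPM). KO samples lay below WT at day 0 and above WT at day 3, with no overlap at either day.

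The KO difference of *Pax6* was -1.65 on the log2 scale at day 0 (SE 0.38, adjusted p = 0.0132 by edgeR) and 1.58 at day 3 (SE 0.43, adjusted p = 0.0198). The difference between the days was 3.23 (SE 0.57, adjusted p = 0.00539 by edgeR). WT fell by 4.09 between the days (SE 0.43, adjusted p = 4.52e-05 by edgeR), and for KO the change was -0.86 (SE 0.39, adjusted p = 0.0812, and 0.0439 in DESeq2). That KO change was -0.26 (adjusted p = 0.533) without KO replicate 1 of day 0 and -1.27, with a call (adjusted p = 0.00994), without KO replicate 2 of day 0. KO cells at day 3, at 2.88 ± 0.42 CPM, thus stood above WT cells of that day but below the 5.28 ± 2.74 CPM of KO and 16.19 ± 3.73 CPM of WT ESCs. The day 0 call was lost without WT replicate 2 (adjusted p = 0.0516) or KO replicate 3 (0.0663), and the day 3 call without WT replicate 1 (0.0702), KO replicate 2 (0.0511) or KO replicate 3 (0.0612).

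*Gbx2* (ENSMUSG00000034486, chromosome 1, 89927956 to 89931179, minus strand) had the most reads of the transcription factors here, with 216, 478 and 423 reads in WT at day 0 (11.78, 24.92 and 22.33 CPM) and 379, 540 and 695 in KO (21.22, 29.73 and 35.46 CPM). At day 3 it had 71, 57 and 29 reads in WT (3.31, 2.74 and 1.38 CPM) and 112, 106 and 91 in KO (5.59, 6.02 and 3.78 CPM). The groups overlapped at day 0 and not at day 3, and KO was higher in each pair of replicates.

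By the main test neither difference in *Gbx2* was called: 0.57 on the log2 scale at day 0 (SE 0.32, adjusted p = 0.248 by edgeR) and 1.04 at day 3 (SE 0.37, adjusted p = 0.057). A replicate block within each day, which compares each KO sample with the WT sample of its number, gave 0.58 (adjusted p = 0.0127) and 1.08 (adjusted p = 0.00136). The 6 samples of day 0 alone also gave a call at that day (0.58, adjusted p = 0.00649 by edgeR). At day 3 DESeq2 (adjusted p = 0.0132), no filter on low counts (0.0294), no replicate block (0.0498) and the 6 samples of the day alone (0.00808) also gave a call, as did leaving out WT replicate 1 of day 0 (0.0345), KO replicate 3 of day 0 (0.0491) or WT replicate 1 of day 3 (0.0172). The fall from day 0 to day 3 was called in both genotypes, at -2.96 in WT (SE 0.37, adjusted p = 0.000129 by edgeR) and -2.49 in KO (SE 0.35, adjusted p = 0.000205). The opposite-strand gene D130058E05Rik shares 946 exon bases with *Gbx2* and was not called at either day (adjusted p = 0.332 and 0.397 by edgeR).

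*Six3* (ENSMUSG00000038805, chromosome 17, 85613608 to 85629302, plus strand) had few reads in every sample but WT replicate 3 of day 3. WT had 0, 5 and 13 reads at day 0 and 18, 9 and 37 at day 3 (0.84, 0.43 and 1.76 CPM). KO had no read in any sample at day 0 and 6, 4 and 18 reads at day 3 (0.30, 0.23 and 0.75 CPM). At day 0 WT replicate 1 was at 0 like the KO samples, so the groups overlapped.

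The day 0 call of *Six3* (adjusted p = 0.0359 by edgeR) rests on 18 reads against 0, at least 5.91-fold lower in KO against a floor of 3 counts over the group. It was lost in 8 of the 11 edgeR fits that left out 1 sample and still tested the gene, among them those without WT replicate 3 (adjusted p = 0.146) and KO replicate 3 (0.155) of day 0. The others left out WT replicate 2 or KO replicate 1 or 2 of day 0, or a KO replicate of day 3 (adjusted p from 0.0515 to 0.0768). The call was also lost without the replicate block (0.0728) and in limma-voom (0.0644). KO rose between the days at least 8.42-fold, from 0 to 28 reads (adjusted p = 0.00703 by edgeR), and WT by 1.75 on the log2 scale (SE 0.65, adjusted p = 0.0493), a call lost without the replicate block (0.137), in DESeq2 (0.0844), with RLE size factors (0.0546) and in all 11 fits that left out 1 sample. At day 3 the difference between KO and WT was -1.25 (SE 0.62, adjusted p = 0.161 by edgeR), and -1.23 with a call in the block within each day (adjusted p = 0.0285). It was also called in the 6 samples of the day alone (-1.22, adjusted p = 0.0328 by edgeR) and without WT replicate 1 of day 0 (0.0464). Its antisense neighbour *Six3os1*, with 106 shared exon bases, had 21, 9 and 37 reads in WT and 4, 6 and 19 in KO at day 3, almost the counts of *Six3* itself.

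*Nefm* (ENSMUSG00000022054, chromosome 14, 68082590 to 68124846, minus strand) encodes the medium neurofilament chain, which gives axons their calibre. It had 70, 45 and 133 reads in WT at day 0 (3.82, 2.35 and 7.02 CPM) and 17, 20 and 23 in KO (0.95, 1.10 and 1.17 CPM). At day 3 it had 216, 213 and 74 reads in WT (10.06, 10.24 and 3.52 CPM) and 298, 134 and 294 in KO (14.89, 7.61 and 12.23 CPM). All KO samples were below WT at day 0, and the groups overlapped at day 3.

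The KO difference of *Nefm* was -1.99 at day 0 (SE 0.53, adjusted p = 0.0251 by edgeR) and 0.49 at day 3 (SE 0.45, adjusted p = 0.444), which came to -0.01 without WT replicate 3 of day 3. The day 0 call was lost in limma-voom (adjusted p = 0.0831) and in edgeR without WT replicate 3 (log2 fold change -1.34, adjusted p = 0.122) or any of the KO replicates of that day (0.086, 0.0662 and 0.09). KO cells gained the transcript between the days, by 3.39 on the log2 scale (SE 0.53, adjusted p = 0.000381 by edgeR), from a mean of 1.08 to 11.57 CPM. For WT the change was 0.90 (SE 0.48, adjusted p = 0.132), and between 0.40 and 1.47 when 1 sample was left out. It was called without WT replicate 3 of day 3, the sample that stood apart (1.46, adjusted p = 0.00559 by edgeR), or without WT replicate 3 of day 0 (1.47, adjusted p = 0.0244). The difference between the days in the KO effect was 2.48 (SE 0.70, adjusted p = 0.0397 by edgeR), called in only 4 of the 12 edgeR fits that left out 1 sample.

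*Nefl*, the light neurofilament chain, lies on the opposite strand and shares 1108 exon bases with *Nefm*. It had 38.62 ± 13.11 CPM in WT and 9.85 ± 0.53 in KO at day 0, and 51.23 ± 17.85 and 18.27 ± 4.74 CPM at day 3 (SD, n = 3). *Nefl* was thus lower in KO at both days, with log2 fold changes of -1.97 (SE 0.33, adjusted p = 0.00299 by edgeR) and -1.49 (SE 0.32, adjusted p = 0.00652), whereas *Nefm* was called lower at day 0 and not called at day 3. The part of *Nefl* reads in the *Nefm* counts was not tested.

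**Figure D2:**
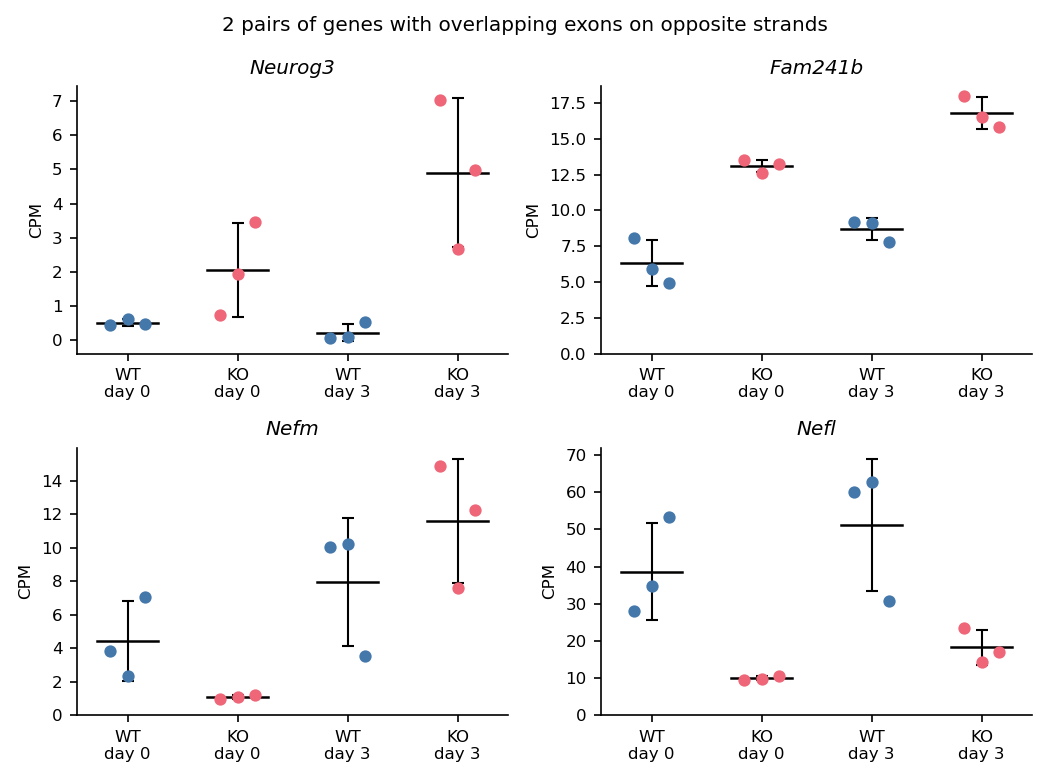
CPM (y axis) of *Neurog3* and *Fam241b*, and of *Nefm* and *Nefl*, 2 pairs with overlapping exons on opposite strands, in each sample by group (x axis); blue is WT, red KO, lines and bars the mean and SD of 3 replicates. *Fam241b* was above WT in KO at both days and *Nefl* below it, while *Neurog3* reached 4.90 CPM in KO at day 3 from 0.22 CPM in WT and *Nefm* did not separate at day 3.

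**Figure D3:**
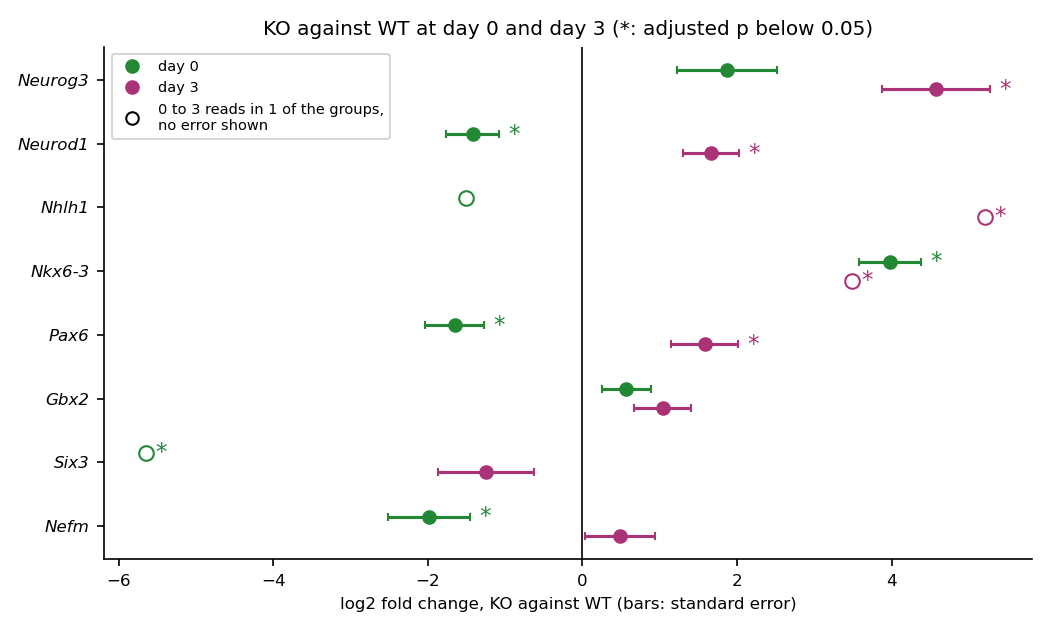
Log2 fold change of KO against WT (x axis) for the 8 tested genes at day 0 (green) and day 3 (purple), with standard errors; stars mark adjusted p below 0.05 by edgeR, and open circles, drawn without error, a group with 0 to 3 reads, where the fitted size depends on the prior count. *Neurod1* (-1.42 and 1.66) and *Pax6* (-1.65 and 1.58) lie on opposite sides of 0 at the 2 days.

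Read across the days, the members split by pattern. *Neurod1*, *Pax6* and *Nefm* had a lower level in KO than in WT ESCs, and by the main test the KO effect differed between the days in each. With *Nhlh1* these were 4 of the 8 tested members, all towards higher at day 3. Of all tested genes 15.5% were called, 8.21% towards higher and 7.34% towards lower. The difference was called for *Neurod1* and *Pax6* in all 12 fits that left out 1 sample, for *Nefm* in 4 of 12 and for *Nhlh1* in 2 of 11. *Nkx6-3* was higher in KO at day 0 and fell in both genotypes. *Neurog3* was higher in KO at day 3, and at day 0 its samples separated without a call in the main test. With the replicate block within each day, *Neurog3* was called higher at day 0 as well (adjusted p = 0.0218 by edgeR). *Gbx2* was then called higher at both days (adjusted p = 0.0127 and 0.00136 by edgeR). Between the days within WT, 5 of the 8 were called, 1 higher and 4 lower (56.2% of tested genes called, 30.7% higher and 25.5% lower), and within KO 5, 3 higher and 2 lower (56.6%, with 29.4% and 27.2%).

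Per kilobase of exon, which allows levels of different genes to be compared, the order also changed. In WT ESCs *Gbx2* led at 9.04 ± 3.20 CPM per kb, followed by *Neurod1* (2.73 ± 0.46), *Pax6* (1.38 ± 0.32) and *Nefm* (0.76 ± 0.41). The last pair overlapped within their SDs, as did *Nkx6-3* (0.33 ± 0.03) and *Neurog3* (0.31 ± 0.06) behind them. In KO ESCs *Gbx2* (13.23 ± 3.29) and *Nkx6-3* (5.38 ± 1.01) led, and *Neurog3* (1.22 ± 0.82) and *Neurod1* (1.03 ± 0.14) overlapped. In KO at day 3 *Neurog3* (2.93 ± 1.31), *Gbx2* (2.36 ± 0.55) and *Nefm* (2.00 ± 0.64) could not be ordered within their SDs, with *Neurod1* at 1.32 ± 0.15. In WT at day 3 *Nefm* (1.37 ± 0.66) and *Gbx2* (1.14 ± 0.46) overlapped, and every other member was at or below the 0.43 ± 0.24 CPM per kb of *Neurod1*.

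**Figure D4:**
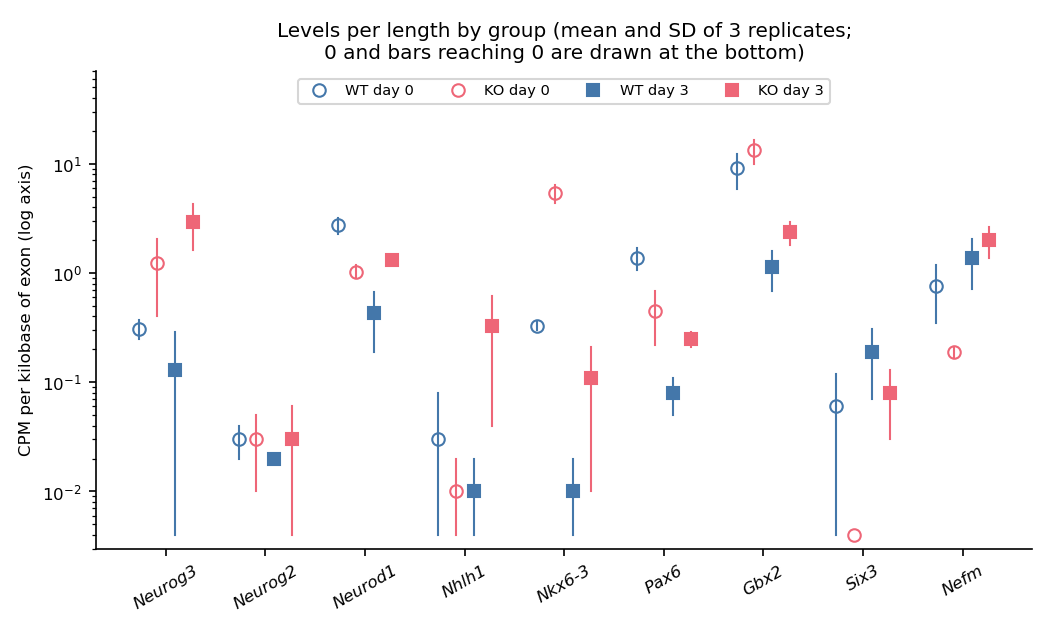
CPM per kilobase of exon (y axis, log scale) of the 9 genes (x axis) in the 4 groups, as mean and SD of 3 replicates; values of 0 and bars that reach 0 are drawn at the bottom. *Gbx2* led at day 0 in both genotypes (9.04 and 13.23), and *Neurog3*, *Gbx2* and *Nefm* shared the top in KO at day 3.

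To see the members beside other neural genes, 28 neural plate and early neuroectoderm factors were examined, 3 of which are members. Of the 23 tested, 9 were called lower and 0 higher in KO at day 0 (median log2 fold change -0.94), and 5 higher and 5 lower at day 3 (median -0.01); over all tested genes the medians were -0.01 and 0.00. Several of them were far more abundant than the members. *Otx2*, a factor of the anterior neural plate and epiblast, had 35.46 ± 7.45 CPM in WT and 3.88 ± 1.99 in KO ESCs (log2 fold change -3.21, SE 0.25, adjusted p = 7.72e-05 by edgeR), and 165.43 ± 13.05 and 246.01 ± 16.52 CPM at day 3 (0.58, SE 0.20, adjusted p = 0.0537).

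The POU factor *Pou3f1*, which promotes neural fate, had means of 22.97 CPM in WT and 5.87 CPM in KO at day 0 and 33.30 ± 6.16 and 147.05 ± 24.01 CPM at day 3, where it was higher by 2.15 (SE 0.16, adjusted p = 4.79e-05 by edgeR). *Sox3*, a gene of neural progenitors and epiblast, went from 8.56 ± 2.26 CPM in WT to 32.25 ± 0.66 in KO at day 3 (1.96, SE 0.25, adjusted p = 0.000548 by edgeR), and *Sox1*, an early marker of neuroectoderm, from 1.06 ± 0.48 to 5.66 ± 1.77 CPM (2.47, SE 0.56, adjusted p = 0.00917). *Sox2*, shared by pluripotent and neural cells, was also called higher at day 3, at 167.77 against 65.93 CPM. The fifth gene called higher was *Pax6*. Those called lower at day 3 included *Nes*, an intermediate filament of progenitors, at 70.18 against 135.91 CPM, *Irx3* at 1.93 against 10.25 CPM and *Sox21* at 0.29 against 3.46 CPM. The change was thus a mixed one within the list at day 3 and towards lower in every called gene at day 0.

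*Nefm* was set beside 20 genes of neuronal structure and maturation, all tested, itself included. In KO at day 0, 2 were called higher and 9 lower (median -0.62), and at day 3, 4 were higher and 4 lower (median 0.16). The effect differed between the days for 12, with 9 towards higher at day 3 and 3 towards lower. The neuronal tubulin *Tubb3* followed the order of *Neurod1*, at 128.28 ± 14.76 CPM in WT and 78.92 ± 19.85 in KO ESCs and 11.64 ± 2.38 and 30.76 ± 2.99 CPM at day 3 (log2 fold changes -0.70, adjusted p = 0.028, and 1.40, adjusted p = 0.000898, by edgeR). The heavy neurofilament chain *Nefh* was higher in KO at day 3 (25.84 ± 9.31 against 6.98 ± 2.02 CPM, adjusted p = 9.26e-05 by edgeR), and so was *Elavl3*, an RNA-binding protein of neurons (36.40 ± 19.69 against 5.84 ± 3.81 CPM, adjusted p = 0.00216). *Ina* was the other one called higher at day 3 (83.70 against 44.34 CPM). The 4 called lower in KO at day 3 were *Nefl*, *Stmn2*, *Ncam1* and *L1cam*. *Stmn2* had 49.22 against 80.37 CPM (adjusted p = 0.00938 by edgeR) and *L1cam* 5.85 against 19.99 CPM (adjusted p = 0.00066). *Ncam1* had 4.10 against 12.08 CPM (adjusted p = 0.00794 by edgeR). *Mapt*, the tau gene, was higher in KO at day 0 (92.66 ± 11.24 against 25.27 ± 3.42 CPM, adjusted p = 0.000448 by edgeR) and near 1 CPM in both genotypes at day 3. The synaptic gene *Snap25* was lower in KO at day 0 (0.24 ± 0.07 against 1.54 ± 0.80 CPM, adjusted p = 0.00652 by edgeR) and had 6.49 ± 1.23 against 6.23 ± 1.81 CPM at day 3.

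Since 4 members also serve endocrine cells, 18 endocrine pancreas and gut genes were examined, with those 4 among them. The defining genes *Ins1*, *Ins2* and *Gcg* had no read in any sample, and *Pdx1* reached 0.06 CPM at most. Of 11 tested, 1 was called higher and 2 lower at day 0, and 5 higher and 2 lower at day 3. The higher ones at day 3 were the 4 members and *Insm1*, a zinc finger factor of neuronal and endocrine precursors (2.98 ± 0.28 CPM in KO, 0.84 ± 0.72 in WT, adjusted p = 0.0267 by edgeR). The lower ones were *Isl1* (0.20 ± 0.08 CPM in KO, 5.79 ± 8.59 in WT, adjusted p = 0.00397 by edgeR) and *Nkx6-1* (0.03 against 0.68 CPM, adjusted p = 0.00501). *Chga*, among the most abundant of the list, was not called at day 0 (adjusted p = 0.603 by edgeR) or day 3 (0.216).

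Markers of other fates moved too. Of 8 primitive streak and mesendoderm markers, 0 were called higher and 2 lower at day 0, and all 8 were lower at day 3, when they summed to between 931.51 and 1816.90 CPM in WT and 76.68 to 151.81 CPM in KO. Of 10 neural crest and placode markers, 7 were tested and 2 were called higher at day 3, among them *Foxd3*, which pluripotent cells also express (log2 fold change 1.38, SE 0.43, adjusted p = 0.0338 by edgeR). Of the 8 pluripotency markers, 2 were higher and 1 lower at day 0, and 3 higher and 2 lower at day 3. Of the feeder markers, none was called at day 0, and at day 3, 3 were higher, among them *Dcn* and *Col3a1*, and 3 lower. The part of these populations in the values of the members was not tested.

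**Figure D5:**
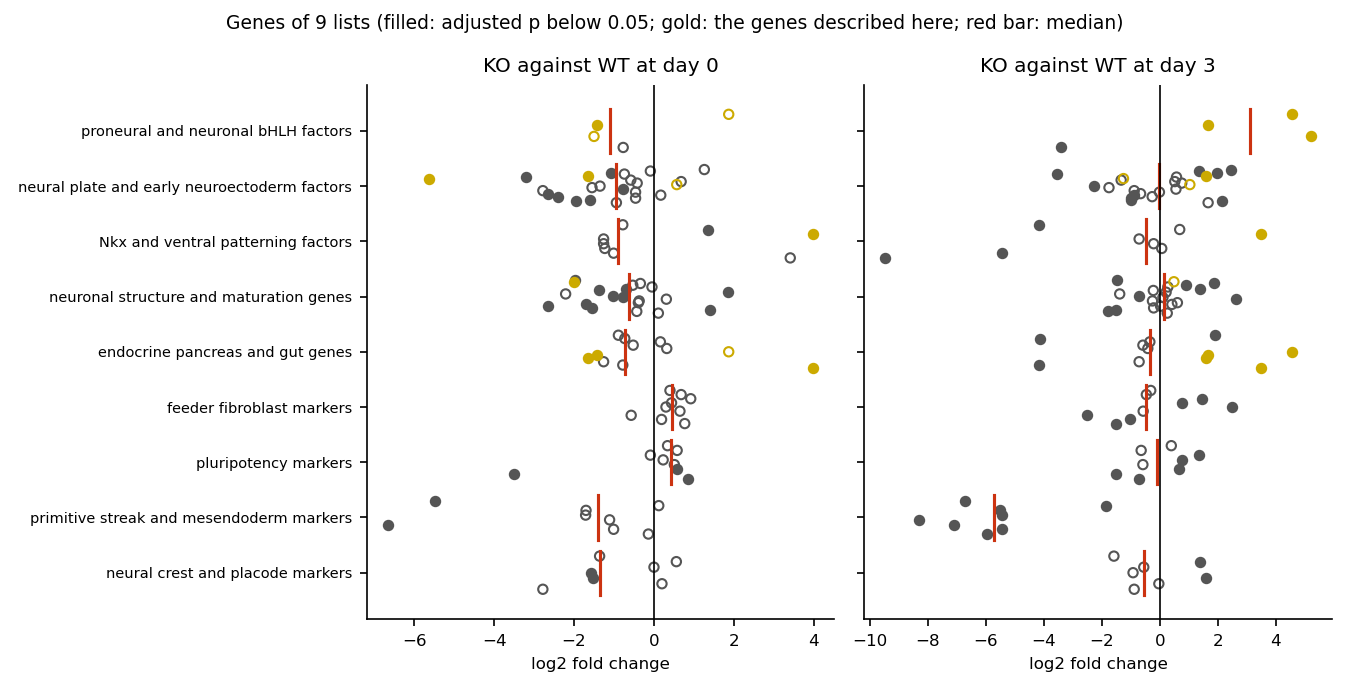
Log2 fold change of KO against WT (x axis) at day 0 (left) and day 3 (right) for the tested genes of 9 lists (rows); each circle is a gene, filled where adjusted p is below 0.05, gold for the genes described here, with a red bar at the list's median. In the neural plate list all 9 called genes lie left of 0 at day 0, and 5 lie on each side at day 3; genes without reads in a group have sizes that depend on the prior count.

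Finally, the tested protein-coding genes closest in pattern to each member with at least 1 CPM in a group were found by Pearson's r of log2 CPM over the 12 samples. This is a description over 12 samples that share their groups, and so any gene that separates the same groups scores high. *Nkx6-3* was closest to *Lims2* (r = 0.994), *Epb41l1* (0.993) and *Gm4778* (0.985), and *Gbx2* to *Nadk* (0.993) and *Trim28* (0.984). *Neurog3* was closest to *Mcf2* (0.949), *Neurod1* to *Zfp142* (0.928), *Pax6* to *Wdr62* (0.951), *Six3* to *Cep164* (0.955) and *Nefm* to *Ctnnd2* (0.969). Among the members themselves *Neurod1* and *Pax6* had r = 0.867, and *Nkx6-3* and *Nefm* -0.832.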

How the data were processed

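Polyadenylated RNA of 12 samples was sequenced, 3 replicates in each of 4 groups. Per the labels and the study's methods, the authors used cutadapt 1.3 for trimming, STAR 2.4.2a for alignment to GRCm38 and HTSeq 0.6.1 for counting per gene. The deposited values are raw counts per gene, not normalized. Alignments that were not unique (36.52% to 44.09%) and reads in no or several genes (6.88% to 10.04%) were left out of library sizes. IDs were matched to gene names of GENCODE M21 (46005 of 46517).

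Counts were scaled by TMM and fitted with edgeR 4.0.16 in R 4.3.3 (quasi-likelihood, a term per group and the replicate number as a block, after the batch factor of the study's methods), with Benjamini-Hochberg adjustment over 15673 genes above 1 CPM in at least 1 sample. A member is called at adjusted p below 0.05. Standard errors were taken from the fold change and the F statistic. On simulated counts with 200 changed genes, 169 were recovered and 9 of the calls were wrong (KO against WT at day 3, 14856 genes). The changed genes were drawn above a minimum count, and simulated replicate effects were shared by both days. These rates therefore do not cover members with few reads or replicate effects that differ between the days. Same-numbered WT and KO samples of a day deviated together (r from 0.339 to 0.718, 6 pairs), so the numbers pair genotypes within a day; across days r averaged -0.055. Counting intervals (95%) and the floor of 3 counts cover counting error only. Alternatives were limma-voom (limma 3.58.1), DESeq2 1.42.0, RLE size factors, other filters, other blocks, the samples of 1 day, a fold minimum and leaving out each sample. E-boxes were searched in RefSeq promoters.

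The members, lists and tests were chosen with earlier results of these data known. Named genes were the members, from each list the 4 most abundant genes, genes of the first 4 lists called with a log2 change of more than 1 at either day, the 3 genes most like each member, and the genes of the deleted locus. *Neurod2*, *Neurod4*, *Neurod6*, *Ins1*, *Ins2*, *Gcg*, *Pdx1*, *Insm1*, *Isl1*, *Dcn* and the overlapping genes were named beside these after their values were seen. Some genes that this rule names are not reported here.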

Additional observations from a re-analysis of the deposited data

Results flagged for a closer look

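For 4 genes the KO effect at day 3 differed from that at day 0 by a test of the difference itself (edgeR's quasi-likelihood test, adjusted over 15673 genes). The differences on the log2 scale were 3.08 for *Neurod1* (adjusted p = 0.00367), 3.23 for *Pax6* (adjusted p = 0.00539), 2.48 for *Nefm* (adjusted p = 0.0397) and 6.71 for *Nhlh1* (adjusted p = 0.0425). *Neurod1* and *Pax6* kept the call in all 12 fits that left out 1 sample. *Nefm* kept it in 4 of 12 (adjusted p up to 0.0907) and *Nhlh1* in 2 of 11 (adjusted p up to 0.957, and 0.0584 without WT replicate 3 of day 3). The value of *Nhlh1* is a fitted one on 4 and 1 reads at day 0 and 1 and 47 at day 3, and so its size depends on the prior count.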

How the results depend on the processing

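The number of members called was within 1.5 times of the main count, with the direction of every call kept, in most alternatives. In limma-voom 3 members were called in KO against WT at day 0 in place of 5. With at least 10 counts in every sample only 3 members (*Pax6*, *Gbx2* and *Nefm*) could be tested, which left 2 calls at day 0, 1 at day 3, 2 over the days in WT, 2 in KO and 2 for the difference between the days. Leaving out 1 sample gave between 1 and 5 calls at day 0, 3 and 7 at day 3, 4 and 5 in WT over the days, 4 and 6 in KO and 2 and 4 for the difference. Without the replicate block 4 members were called at day 0, 6 at day 3 and 3 for the difference. With a replicate block within each day 7, 7 and 6 were called. That block leaves the error of a change between the days within a genotype too small. These counts compare KO with WT inside each day, so that limit does not cover them. Over all genes that block raised the calls from 3201 to 5447 at day 0 and from 4846 to 7347 at day 3, and the 6 samples of the day alone gave 5356 at day 0. For the difference it gave 4889 in place of 2436.

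Signs turned only in values that were not called, each when 1 sample was left out: *Nhlh1* at day 0 (1.21 without WT replicate 1 and 0.14 without KO replicate 1, in a range of -4.06 to 1.21) and over the days in WT (-2.52 to 0.95, the latter without WT replicate 1 of day 0), *Nefm* at day 3 (-0.01 without WT replicate 3, and up to 1.00) and the difference for *Nkx6-3* (-1.24 to 1.14, the latter without WT replicate 2 of day 3). Of the 738 values recomputed, 638 kept direction and side of the threshold, 61 lost a call, 34 gained one and 5 turned. The causes were not tested. At about 20 reads per CPM, *Neurog2*, *Nhlh1*, *Six3* and *Nkx6-3* at day 3 are limited by depth.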
